A study of Mus musculus with 6 samples.

Results

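A set of survival regulators of the BCL2 and IAP families was followed, each member taken by its gene symbol: Bcl2, Bcl2l1, Mcl1, Bcl2l11, Bbc3, Pmaip1, Birc2, Birc3, Xiap and Cflar. They are 10 of the 46603 genes in the count files, and all 10 passed the filter on low counts that left 15226 genes for testing. The libraries came from neurosphere-derived EGCs (enteric glia, the supporting cells of the gut's nerve plexuses), profiled by bulk poly(A) RNA sequencing in a study that examined how EGCs act on monocytes and macrophages. The control group held 3 libraries of untreated cells and the LPS group 3 libraries of cells exposed for 12 h to 100 ng/ml of lipopolysaccharide, an outer membrane glycolipid of bacteria. All 6 derived from whole intestines of E14.5 embryos of the C57BL/6J strain, and the labels name no genetic change in either group. The cells were first grown as floating neurospheres in EGF and FGF and then spread on poly-D-lysine in 10% fetal bovine serum, and no sorting step is described. The labels do not say whether the 3 libraries of a group were separate cultures or litters, and p-values therefore measure the spread between these libraries, which may be technical.

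Cells die by the mitochondrial route when BAX and BAK open pores in the outer mitochondrial membrane. BCL2, BCL-XL (Bcl2l1) and MCL1 hold these pore formers in check, while the BH3-only proteins BIM (Bcl2l11), PUMA (Bbc3) and NOXA (Pmaip1) bind and neutralise the guardians. Further downstream XIAP inhibits caspases directly, the ubiquitin ligases cIAP1 (Birc2) and cIAP2 (Birc3) keep tumour necrosis factor receptor signalling on its survival branch, and cFLIP (Cflar) limits caspase-8 activation at death receptors. In many cell types inflammatory NF-κB signalling induces Birc3 and Cflar, whereas p53 induces Bbc3 and Pmaip1 and FOXO factors induce Bcl2l11.

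The promoter sequences of 4 members are shown because Birc3, Cflar and Bcl2 were among the genes whose transcripts changed and Birc2 is the neighbour of Birc3. Each is a RefSeq window on GRCm38.p6 of 300 bases, 250 before and 50 after the transcription start, read 5′ to 3′ on the strand of the gene. Capitals mark a match to a searched motif, and a sequence without capitals held no match.
Birc3, chr9:7873121-7873420, minus strand: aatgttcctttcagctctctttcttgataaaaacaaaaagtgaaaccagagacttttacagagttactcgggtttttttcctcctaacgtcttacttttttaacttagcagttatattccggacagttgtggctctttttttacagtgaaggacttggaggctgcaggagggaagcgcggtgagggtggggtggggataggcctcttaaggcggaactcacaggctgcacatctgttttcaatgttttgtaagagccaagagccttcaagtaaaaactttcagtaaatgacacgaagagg
Birc2, chr9:7837008-7837307, minus strand: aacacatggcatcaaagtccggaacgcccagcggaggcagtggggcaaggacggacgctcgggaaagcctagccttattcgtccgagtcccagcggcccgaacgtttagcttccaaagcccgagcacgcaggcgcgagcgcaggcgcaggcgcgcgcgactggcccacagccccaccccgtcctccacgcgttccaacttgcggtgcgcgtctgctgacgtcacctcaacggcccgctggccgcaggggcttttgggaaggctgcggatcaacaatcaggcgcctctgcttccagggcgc
Cflar, chr1:58711241-58711540, plus strand: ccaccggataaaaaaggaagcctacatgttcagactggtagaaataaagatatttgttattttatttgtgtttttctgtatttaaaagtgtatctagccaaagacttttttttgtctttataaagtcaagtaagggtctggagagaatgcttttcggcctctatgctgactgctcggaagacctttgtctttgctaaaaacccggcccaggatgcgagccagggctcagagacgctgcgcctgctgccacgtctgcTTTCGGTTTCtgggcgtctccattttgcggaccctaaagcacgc
Bcl2, chr1:106714241-106714540, minus strand: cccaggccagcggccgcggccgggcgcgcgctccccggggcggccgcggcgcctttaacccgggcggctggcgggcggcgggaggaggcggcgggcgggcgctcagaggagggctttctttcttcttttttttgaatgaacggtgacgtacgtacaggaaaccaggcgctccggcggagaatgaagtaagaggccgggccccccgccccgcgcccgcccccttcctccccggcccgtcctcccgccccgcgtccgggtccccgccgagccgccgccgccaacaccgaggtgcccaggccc

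The Birc3 and Cflar windows were poor in G and C, with 43% and 45% of bases, against a median of 52.7% over all 32851 windows of the table. The Birc2 and Bcl2 windows held 67% and 76%. In the Cflar window the capitals are an interferon regulatory factor (IRF) element, GAAANNGAAA read on the opposite strand, from 6 to 15 bases after the start base. That motif was found, on either strand, in 3.44% of all windows. Neither the Birc3 nor the Bcl2 window held the κB consensus, the IRF element, the STAT element TTCNNNGAA, the p53 half-site or the FOXO site GTAAACA on either strand.

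The table held 17 windows for 9 of the members. A κB consensus match stood in 1 of the 3 windows of Bcl2l1 and 1 of the 3 windows of Bbc3, and such a match occurred in 4.51% of all windows. In the Bbc3 window it spanned positions -137 to -127 from the start base, where overlapping matches were read on both strands. A FOXO site, present in 3.65% of all windows, was found in 1 of the 2 Bcl2l11 windows and in another Bbc3 window. The second Birc2 window, chr9:7836757-7837056, held a p53 half-site, a motif found in 8.36% of all windows. The STAT element occurred in 8.3% of all windows and in none of the 17. A match describes the letters of a window and is not a measured binding site, and no match says only that these letters are not in that window.

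Library totals lay between 18775316 and 23664312 counts, which put 3 counts, taken as the detection floor, at 0.124 to 0.167 CPM (counts divided by the library size in units of 1e6, after scaling by trimmed mean of M-values). The scaling factors were 1.023 to 1.081 in control and 0.917 to 0.969 in LPS. Mitochondrial genes held 1.69%, 1.43% and 1.49% of counts in control and 1.16%, 1.06% and 1.14% in LPS. The part of these group differences in the results was not tested. All 8 glial markers were above the floor in every library, among them Sox10 at 73.8 to 100.7 CPM, and their summed level was 390.3 to 512.4 CPM in control and 384.8 to 433.9 CPM in LPS. Within this list S100b was called lower (log2 fold change -1.91, adjusted p = 0.0238) and Fabp7 higher (1.29, adjusted p = 0.0122), and with the replicate block 2 were higher and 2 lower. Other cells were also represented. The 12 macrophage markers summed to 4139, 5347 and 12482 CPM in control replicates 1, 2 and 3 and to 3995, 5175 and 19443 CPM in LPS replicates 1, 2 and 3, with 11 of the 12 above the floor in every library, so that the library numbered 3 was highest in each group. Lyz2 made up the largest part of this sum, and Adgre1 was the 1 gene called, higher (log2 fold change 2.78, adjusted p = 0.0452), whereas the replicate block called 4 higher and 4 lower, Mrc1 among the latter (-3.92, adjusted p = 0.0124). The 6 smooth muscle markers were all called lower in LPS, from a sum of 2266 to 2492 CPM in control to 634.1 to 900.3 CPM. The 6 mesenchymal markers summed to 15151 to 15716 CPM in control and 14781 to 15341 CPM in LPS, most of it from 3 collagen genes, none called. Of the others Dcn (log2 fold change 0.90, adjusted p = 0.0118) and Pdgfra (0.50, adjusted p = 0.0114) were called higher and Lum was not called (-0.73, adjusted p = 0.0775). The part of these cells in the results below was not tested, and in bulk RNA fewer cells of a type and less RNA per cell cannot be told apart.

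Among the survival regulators, LPS was accompanied by higher Birc3 and Cflar and by lower Bcl2 and Pmaip1. Calls were made with the edgeR quasi-likelihood F-test at a Benjamini-Hochberg adjusted p under 0.05 over all genes tested. Of the 10 members 2 were called higher, where 9.09% of all tested genes were, and 2 were called lower, where 6.71% were. The other 6 did not pass. Every LPS library lay above every control library for 3 members (Birc2, Birc3 and Cflar), an arrangement met by 19.3% of all genes, and below every control library for 3 (Bcl2, Bcl2l11 and Pmaip1), met by 19.4%. The median log2 fold change was -0.16 over the members and -0.02 over all genes. With the replicate number as a block, which pairs the libraries, 3 members were higher and 3 lower, against 15.4% and 14.9% of all genes.

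**Figure D1:**
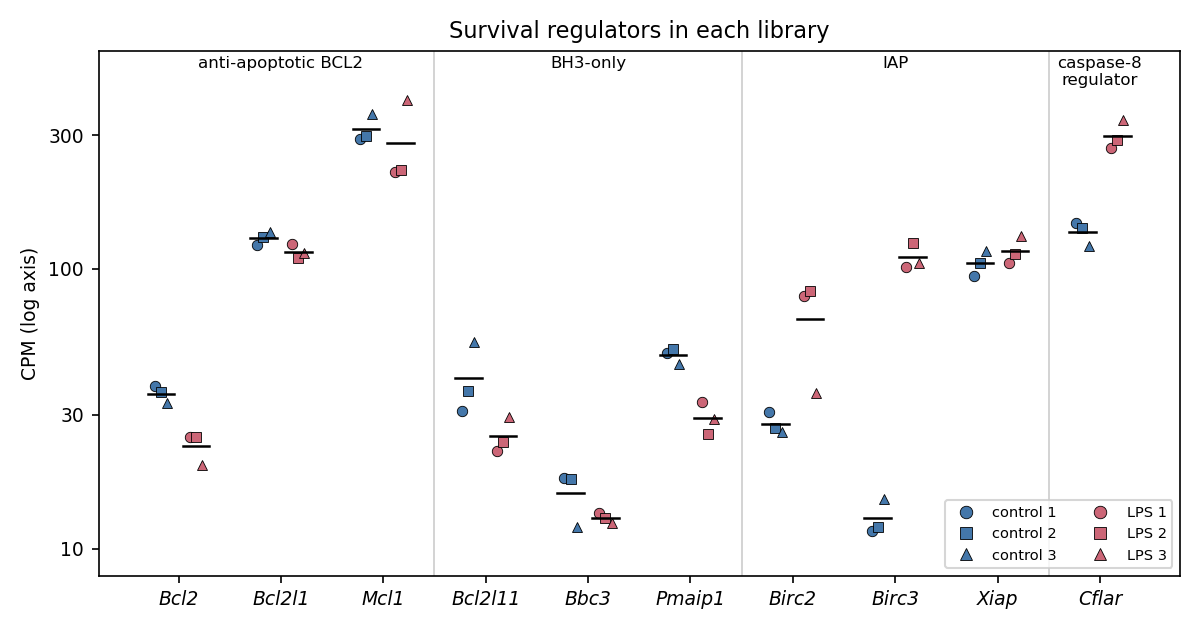
Level of each member in CPM (logarithmic vertical axis) in the 3 control (blue) and 3 LPS (red) libraries, with the symbol shape giving the replicate number and the short line the group mean. Birc3 rose from 11.6 to 15.1 CPM in control to 101.5 to 123.0 CPM in LPS, while Birc2 in LPS replicate 3 (35.8 CPM) sat close to the control libraries.

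**Figure D2:**
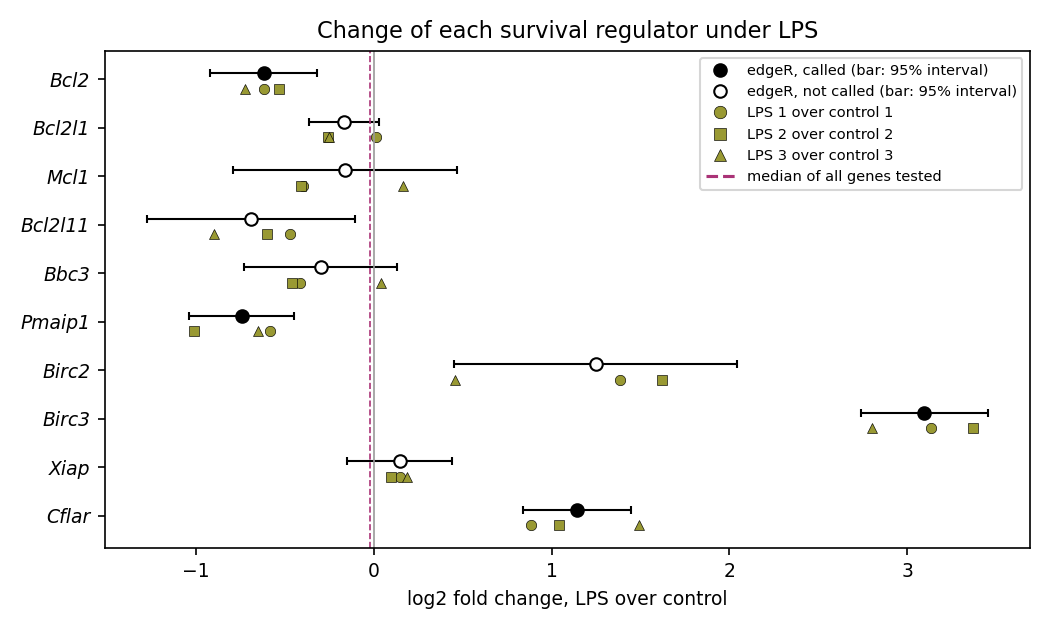
Log2 fold change of LPS over control for each member (horizontal axis), with the edgeR estimate and its 95% interval in black, filled where called, and the log2 ratio of the equally numbered libraries in olive. The dashed line is the median of all genes tested (-0.02). The 3 pair ratios of Birc2 and of Mcl1 show the pair numbered 3 away from the other pairs, at 0.46 for Birc2 and 0.17 for Mcl1.

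Birc3 gave the largest change of the members. Birc3 (ENSMUSG00000032000, chr9:7848699-7873186, minus strand, GRCm38) encodes cIAP2, and counts cover its exons. It was at 11.6, 11.9 and 15.1 CPM in control replicates 1, 2 and 3 and at 101.5, 123.0 and 105.1 CPM in LPS replicates 1, 2 and 3. The groups were far apart, with the lowest LPS library several times above the highest control library. Birc3 rose 8.54-fold, a log2 fold change of 3.09 (SE 0.15, 95% interval 2.74 to 3.45, adjusted p = 0.00026), from a mean of 12.9 ± 1.94 to 109.9 ± 11.5 CPM (SD, n = 3). Each equally numbered pair showed the rise, by 3.13, 3.37 and 2.80 on the log2 scale. The call was kept in all 15 alternative analyses, with log2 fold changes from 2.94 to 3.28. Stretches of 50 bases shared with other genes made up 7.56% of the Birc3 exons. The first partner was Gm7019, which had at most 4 counts in a library, and the next was Birc2. In Birc2 such stretches made up 1.485%, with Birc3 as the first partner. The effect of this on the split of counts between Birc3 and Birc2 was not tested.

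Birc2 (ENSMUSG00000057367, chr9:7818227-7837064, minus strand) encodes cIAP1 and lies 11634 bases from Birc3 with no annotated gene between them. Its levels were 30.6, 27.0 and 26.0 CPM in control and 80.0, 83.2 and 35.8 CPM in LPS. All 3 LPS libraries exceeded the control libraries, but LPS replicate 3 lay far below LPS replicates 1 and 2 and nearer to control. The log2 fold change was 1.25 (SE 0.32, 95% interval 0.45 to 2.04) and missed the threshold at an adjusted p of 0.0522. It passed with the replicate block (1.16, adjusted p = 0.0292), with the DESeq2 Wald test (1.27, adjusted p = 0.00252) and without LPS replicate 3 (1.55, adjusted p = 0.000711), and over all alternatives the adjusted p ran from 2.72e-05 to 0.175. Between the pairs numbered 1, 2 and 3 the rise was 1.38, 1.62 and 0.46 on the log2 scale. LPS replicate 3 was also the library with the highest macrophage marker sum, and the part of that difference in the Birc2 value was not tested.

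Xiap (ENSMUSG00000025860, chrX:42059679-42109656, plus strand), the direct caspase inhibitor, stayed in a narrow range, at 94.2, 104.9 and 115.4 CPM in control and 104.5, 112.3 and 131.2 CPM in LPS. The groups overlapped. Its log2 fold change of 0.15 (95% interval -0.15 to 0.44, adjusted p = 0.457) was not called, and it was -0.01 when libraries were scaled by size alone.

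Because the 3 IAP genes differ in exon length, their levels were compared as CPM per kilobase of exon. On this scale the control libraries held 2.57 ± 0.39 of Birc3, 6.09 ± 0.53 of Birc2 and 11.1 ± 1.12 of Xiap (SD, n = 3). In LPS the values were 21.9 ± 2.3, 14.48 ± 5.78 and 12.2 ± 1.45 (SD, n = 3), so the gene that was lowest of the 3 in each control library was the highest in each LPS library. Birc3 supplied 12.2%, 12.3% and 14.4% of the summed IAP level in control and 41.6%, 45.0% and 49.2% in LPS. The share of Xiap went from a mean of 56.0% to 25.6% without a called change in Xiap itself. The ratio of Birc3 to Birc2 was 0.35, 0.40 and 0.53 in control and 1.16, 1.35 and 2.68 in LPS, and did not overlap between the groups. These ratios and shares are descriptions of the same values and were given no test of their own.

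**Figure D3:**
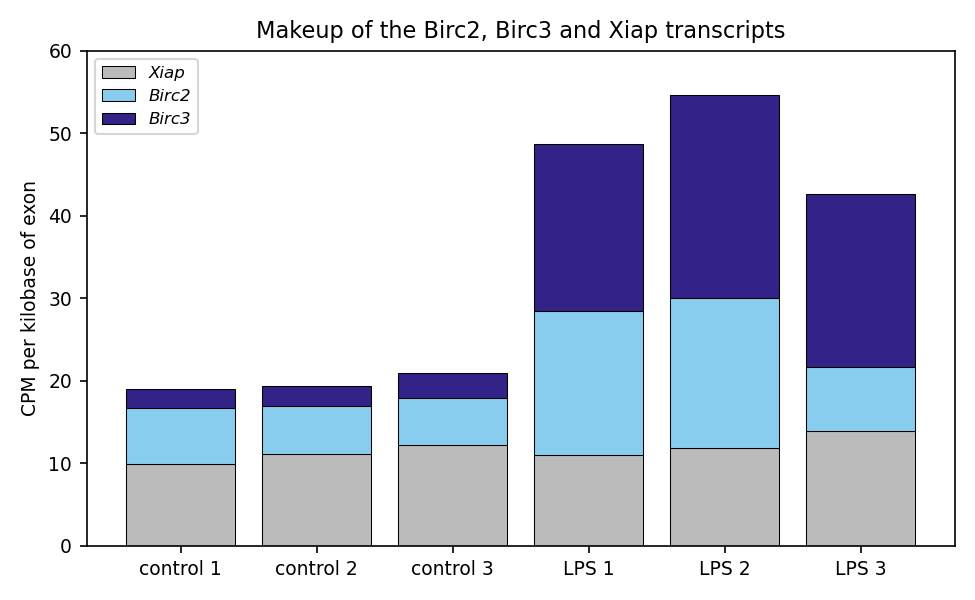
Stacked levels of Xiap (grey), Birc2 (light blue) and Birc3 (dark blue) in CPM per kilobase of exon (vertical axis, from 0) in each library. The total was 18.9 to 20.9 in the control libraries and 42.7 to 54.6 in the LPS libraries, with Birc3 the largest layer in each LPS library.

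Cflar (ENSMUSG00000026031, chr1:58711508-58758884, plus strand), which encodes the caspase-8 regulator cFLIP, was at 145.9, 140.1 and 120.1 CPM in control and 269.3, 288.5 and 338.1 CPM in LPS. No LPS library came near the control range. Cflar rose 2.21-fold, a log2 fold change of 1.14 (SE 0.12, 95% interval 0.84 to 1.45, adjusted p = 0.00434), and was called in all 15 alternatives with values from 0.98 to 1.21. The pair ratios were 0.88, 1.04 and 1.49 on the log2 scale, with the pair numbered 3 highest, whereas for Birc2 that pair was lowest. Words of 50 bases shared with other genes, mostly Gm9845 with 36 to 117 counts per library, made up 7.36% of its exons.

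Of the 3 anti-apoptotic BCL2 members Bcl2 alone was called, and the log2 fold change was negative for all 3. Differences between these members were not tested. Bcl2 (ENSMUSG00000057329, chr1:106538178-106714274, minus strand) was at 38.2, 36.2 and 33.0 CPM in control and 24.96, 25.02 and 19.9 CPM in LPS, with every LPS library below every control library. Bcl2 fell by 0.62 on the log2 scale (SE 0.12, 95% interval -0.92 to -0.32, adjusted p = 0.0258), and by 0.62 with the replicate block (adjusted p = 0.0077). Without control replicate 1 or 2 the call ended, at adjusted p of 0.106 and 0.116, and likewise without LPS replicate 1 or 2, at 0.0702 and 0.0787, with the log2 fold change between -0.67 and -0.56. The antisense gene D630008O14Rik overlies 6.09% of the Bcl2 exons but had at most 1 count in a library.

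Mcl1 (ENSMUSG00000038612, chr3:95658788-95663176, plus strand), the short-lived guardian of the group, was the most abundant member per kilobase of exon in both groups. It was at 290.8, 298.1 and 356.1 CPM in control and 220.9, 224.4 and 399.6 CPM in LPS. LPS replicates 1 and 2 lay below all control libraries and LPS replicate 3 above them all. The log2 fold change of -0.16 (95% interval -0.79 to 0.47, adjusted p = 0.715) was not called, and without LPS replicate 3 it was -0.50 (adjusted p = 0.034). Bcl2l1 (ENSMUSG00000007659, chr2:152780668-152831728, minus strand), which encodes BCL-XL, was at 121.5, 130.2 and 135.4 CPM in control and 122.6, 109.0 and 113.6 CPM in LPS. The groups overlapped by LPS replicate 1 alone, and the log2 fold change of -0.17 (95% interval -0.36 to 0.03, adjusted p = 0.217) was not called. Scaling by library size alone, which shifted the median of all genes to -0.18, gave -0.32 (adjusted p = 0.0427).

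All 3 BH3-only members had a negative log2 fold change, and Pmaip1 alone passed the test. Pmaip1 (ENSMUSG00000024521, chr18:66458533-66465565, plus strand), which encodes the MCL1-binding protein NOXA, was at 50, 51.6 and 45.5 CPM in control and 33.4, 25.6 and 29.0 CPM in LPS. The groups did not overlap. Pmaip1 fell by 0.74 on the log2 scale (SE 0.12, 95% interval -1.04 to -0.45, adjusted p = 0.0149). Without control replicate 1 or 2 the adjusted p was 0.0688 and 0.0799, without LPS replicate 2 it was 0.0546, and the log2 fold change then lay between -0.72 and -0.65.

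Bcl2l11 (ENSMUSG00000027381, chr2:128126038-128162547, plus strand), which encodes BIM, was at 30.9, 36.4 and 54.8 CPM in control and 22.3, 24.0 and 29.5 CPM in LPS. The highest LPS library lay just under the lowest control library, and the replicates numbered 3 were highest in both groups. The log2 fold change was -0.69 (SE 0.24, 95% interval -1.27 to -0.10) and was not called (adjusted p = 0.108). With the replicate block it was -0.66 and was called lower (adjusted p = 0.0153), and the pair ratios were -0.47, -0.60 and -0.90 on the log2 scale. Without control replicate 3 it was -0.40 (adjusted p = 0.156). Bbc3 (ENSMUSG00000002083, chr7:16308393-16318205, plus strand), which encodes PUMA, was at 17.8, 17.7 and 12.0 CPM in control and 13.3, 12.9 and 12.4 CPM in LPS. Control replicate 3 was the lowest library of all 6, and the groups overlapped through it. Bbc3 had a log2 fold change of -0.30 (95% interval -0.73 to 0.13, adjusted p = 0.301) and was not called. Without control replicate 3 it was -0.45 (adjusted p = 0.0473).

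With both libraries numbered 3 left out, an analysis added after the data were seen, 3 members were called higher (Birc2, Birc3 and Cflar) and 5 lower (Bcl2, Mcl1, Bcl2l11, Bbc3 and Pmaip1). In that fit 22.6% of all genes were called higher and 20.4% lower. Its log2 fold changes were 1.52 for Birc2 (adjusted p = 2.72e-05), -0.38 for Mcl1 (adjusted p = 0.00143), -0.52 for Bcl2l11 (adjusted p = 0.00741) and -0.41 for Bbc3 (adjusted p = 0.0115). Bcl2l1 and Xiap were not called in it.

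Per kilobase of exon the order of the members in control was Mcl1 (92.2 ± 10.5), Bcl2l1 (28.1 ± 1.53), Pmaip1 (17.95 ± 1.14), Xiap, Cflar (10.7 ± 1.07), Bbc3 (7.45 ± 1.56), Birc2, Bcl2l11 (5.07 ± 1.56), Bcl2 (3.91 ± 0.29) and Birc3 (CPM per kilobase, SD, n = 3). The ranges of Xiap and Cflar overlapped, as did those of Bbc3 with Birc2, Birc2 with Bcl2l11 and Bcl2l11 with Bcl2. Differences between neighbours in the order were not tested. In LPS the order was Mcl1 (82.4 ± 29.9), Bcl2l1 (25.1 ± 1.5), Cflar (23.6 ± 2.8), Birc3, Birc2, Xiap, Pmaip1 (10.7 ± 1.44), Bbc3 (6.05 ± 0.23), Bcl2l11 (3.15 ± 0.47) and Bcl2 (2.55 ± 0.32). Here the ranges of Bcl2l1, Cflar and Birc3 overlapped from neighbour to neighbour, as did those of Birc2, Xiap and Pmaip1. Birc3 moved from rank 10 to rank 4, and Bcl2 from rank 9 to rank 10.

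Summed by role, the BH3-only members held 30.5, 31.7 and 29.1 CPM per kilobase in control and 21.3, 18.4 and 20.1 in LPS, without overlap. Pmaip1, the 1 called member of the 3, made up a mean of 58.9% of this sum in control and 53.7% in LPS. The anti-apoptotic sum of Bcl2, Bcl2l1 and Mcl1, most of which was Mcl1, was 115.7, 119.5 and 137.3 in control and 94.1, 92.1 and 143.9 in LPS, and overlapped through LPS replicate 3. The ratio of the anti-apoptotic to the BH3-only sum was 3.79, 3.77 and 4.71 in control and 4.42, 5.004 and 7.16 in LPS, so the groups overlapped while the LPS value was the higher in each equally numbered pair. This ratio was given no test. The ratio of Bcl2 to its antagonist Bcl2l11 had a mean of 0.83 in both groups, with an SD of 0.28 in control and 0.21 in LPS.

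For each called member the 3 genes with the most similar profile were sought among 11479 genes, as the root mean square (RMS) difference of centred log2 CPM over the 6 libraries. For Birc3 these were Slc2a6 (RMS 0.09), Parp9 (0.12) and Gch1 (0.13). Those of Cflar included N4bp1 (0.10) and Ascc3 (0.11). The nearest genes to Bcl2 were Msrb3 (0.04), Fzd3 (0.04) and Tmem150a (0.05), and those to Pmaip1 were Rab4a (0.05), Hecw2 (0.07) and Zbtb8a (0.08). No other member was among them.

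The other genes of the cell death pathway were drawn from 9 lists of 59 genes, of which 58 were tested and Bcl2l10 had no count. Of these, 13 were called higher and 5 lower, with a median log2 fold change of 0.11, beside 9.09% and 6.71% of all genes. With the replicate block the counts were 20 and 8, beside 15.4% and 14.9% of all genes. Many of these calls were lost when a library was left out. Without control replicate 2, for example, 4 were higher and 0 lower, in a fit that called 379 genes higher and 112 lower of 15564 tested.

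**Figure D4:**
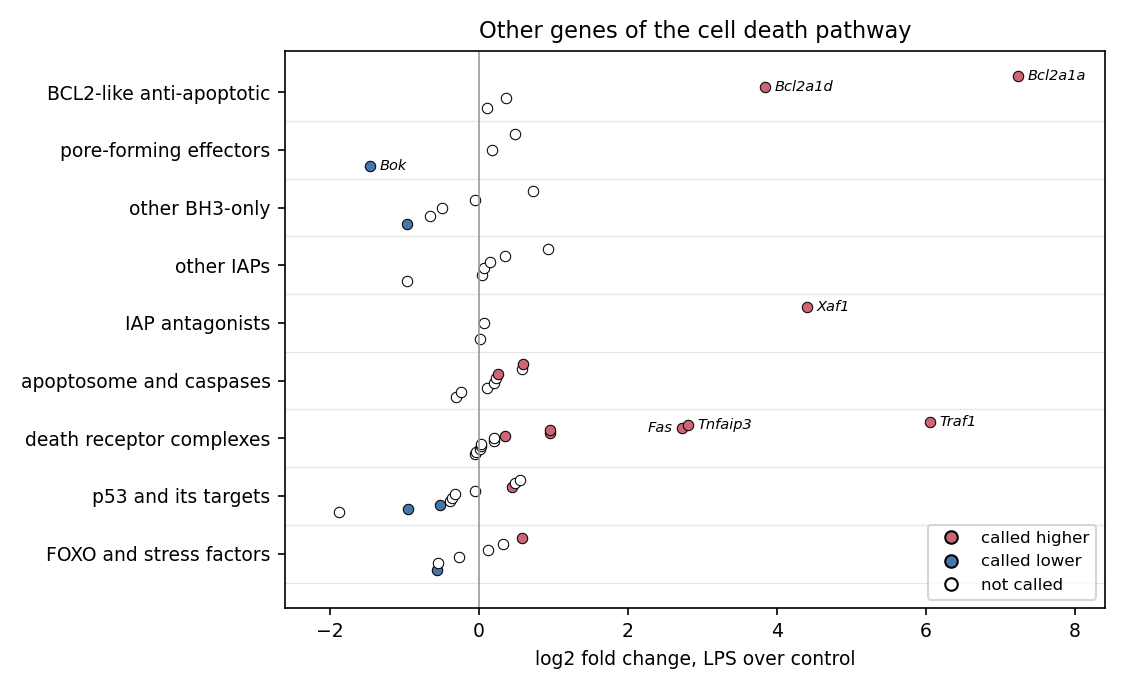
Log2 fold change of LPS over control (horizontal axis) for the 58 tested genes of the 9 lists (vertical axis), red where called higher, blue where called lower and white where not called. Called genes beyond 1.2 in either direction are named. Traf1 (6.05), Xaf1 (4.40), Bcl2a1a and Bcl2a1d lie far to the right, while most other genes are within 1 of 0.

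In the death receptor list 6 of 13 tested genes were called, all higher. Traf1, an adaptor that binds the cIAPs, was at 0.76, 0.75 and 0.70 CPM in control and 44.2, 58.7 and 45.6 CPM in LPS (log2 fold change 6.05, SE 0.17, adjusted p = 8.77e-05). Traf2, the adaptor that brings the cIAPs to tumour necrosis factor receptors, rose by 0.95 (adjusted p = 0.00185). Both were called in all 15 alternatives. Fas, a death receptor, was at 10.6, 7.88 and 5.91 CPM in control and 70.0, 68.7 and 22.6 CPM in LPS. Tnfaip3, the ubiquitin-editing enzyme A20, was at 19.9, 23.3 and 36.5 CPM in control and 205.0, 261.9 and 91.5 CPM in LPS. In both genes LPS replicate 3 was the lowest of the LPS libraries, as for Birc2, yet above all control libraries. Their log2 fold changes were 2.73 (adjusted p = 0.0198) and 2.81 (adjusted p = 0.0146), and the calls were lost without control replicate 1 or 2 or LPS replicate 1 or 2, with an adjusted p up to 0.0991 for Fas and 0.0856 for Tnfaip3. The log2 fold changes in those fits were 2.49 to 2.97 for Fas and 2.48 to 2.73 for Tnfaip3.

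The remaining receptor complex genes called were Rnf31, the catalytic subunit of the linear ubiquitin ligase, and Cyld, a deubiquitinase. Rnf31 had a log2 fold change of 0.95 (adjusted p = 0.0312) and was called in 10 of 15 alternatives. Its call needed every library except LPS replicate 3, with adjusted p from 0.0557 to 0.13 without 1 of the others. Cyld had a log2 fold change of 0.35 (adjusted p = 0.0199) and was called in 9 of 15, not without control replicate 1 or 2 or LPS replicate 1 or 2 (adjusted p from 0.0752 to 0.108), with library size alone (log2 fold change 0.20, adjusted p = 0.0651) or with no filter (adjusted p = 0.057). Casp8, the initiator caspase that cFLIP restrains, was at 41.4, 42.0 and 50.7 CPM in control and 51.9, 52.1 and 95.5 CPM in LPS. Its groups did not overlap, but its log2 fold change of 0.57 was not called (adjusted p = 0.2). It was 0.22 without LPS replicate 3 (adjusted p = 0.23), and 0.34 and called without both libraries numbered 3 (adjusted p = 0.00516).

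Among the BCL2 relatives, Bcl2a1a and Bcl2a1d, whose A1 proteins are anti-apoptotic, were called higher. Bcl2a1a had 1, 2 and 6 counts in control and 261, 370 and 516 counts in LPS, a ratio of summed and scaled counts of 156.6 with a 95% interval from 82.2 to 343.3 that covers counting error only. Control replicate 3 held 6 of the 9 control counts, and without it the log2 fold change went from 7.24 to 8.16. Bcl2a1d was at 0.72, 1.42 and 3.18 CPM in control and 21.6, 30.5 and 24.5 CPM in LPS, and without control replicate 2 its adjusted p went from 0.00935 to 0.0645. Bcl2a1b was not called, with a log2 fold change of 0.10 that ran from -0.24 without control replicate 1 to 0.98 without control replicate 3. These 3 genes share 69.0% to 79.5% of their 50-base words with one another and with further copies, so the split of counts between them is uncertain.

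The pore former Bok was called lower, at 12.4, 12.1 and 18.1 CPM in control and 4.497, 4.68 and 6.33 CPM in LPS (log2 fold change -1.46, adjusted p = 0.0143). Without control replicate 2, LPS replicate 1 or LPS replicate 2 its adjusted p was 0.0556, 0.0609 and 0.0709, with log2 fold changes from -1.55 to -1.36. Bax, at 129.2, 120.5 and 100.3 CPM in control and 140.0, 134.9 and 121.0 CPM in LPS, was not called and its groups overlapped. Bak1 was at 68.4, 70.2 and 84.7 CPM in control and 89.4, 97.8 and 124.8 CPM in LPS, with a log2 fold change of 0.48 that edgeR did not call (adjusted p = 0.0906) and that passed with the replicate block (adjusted p = 0.00951), with DESeq2 (adjusted p = 0.0411) and without both libraries numbered 3 (adjusted p = 0.00208). An antisense gene, Ggnbp1, shares 17.1% of the Bak1 words, and the strand setting of the counting was not stated. Of the other BH3-only genes Bmf alone was called by edgeR on all 6 libraries, with a log2 fold change of -0.97 (adjusted p = 0.0493). Its call was lost with the replicate block (-0.99, adjusted p = 0.0559). It was also lost without control replicate 1 or 2 or LPS replicate 1 or 2, at adjusted p from 0.143 to 0.163 and log2 fold changes from -0.91 to -0.85. Bid, which links caspase-8 to the mitochondrial route, had every LPS library above every control library, at 21.9, 24.3 and 34.6 CPM in control and 52.6, 43.9 and 37.0 CPM in LPS. Its log2 fold change of 0.72 was not called (adjusted p = 0.0756), and it was called by DESeq2 (0.74, adjusted p = 0.0204), without control replicate 3 (0.96, adjusted p = 0.0296) and without both libraries numbered 3 (1.09, adjusted p = 0.000399). An antisense gene shares 16.4% of the Bid words.

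Xaf1, an antagonist of XIAP, showed one of the widest separations in these lists, at 5.13, 5.05 and 5.74 CPM in control and 103.1, 111.3 and 122.6 CPM in LPS (log2 fold change 4.40, SE 0.11, adjusted p = 7.71e-05), and was called in all 15 alternatives. Its partners on the list, Diablo and Htra2, were not called, at 0.07 and 0.02. Other genes, antisense genes among them, share 37.3% of the Diablo words and 33.8% of the Htra2 words, so these values are uncertain. Of the 6 other IAP genes 0 were called on all 6 libraries by edgeR without the replicate block, by DESeq2 or by limma-voom. Among them 1, Birc5, had an unadjusted p under 0.05 in edgeR (0.0347). With the replicate block Naip2, a member of the NAIP family of bacterial sensors, was called higher (log2 fold change 0.86, adjusted p = 0.0103), with pair ratios of 0.89, 0.60 and 1.08 on the log2 scale, and it was also called without both libraries numbered 3 (0.75, adjusted p = 0.0133). Without the block its log2 fold change of 0.93 was not called (adjusted p = 0.35) and was 0.16 without LPS replicate 3 and 1.51 without control replicate 3, and 19.1% of its words are shared with other Naip genes. Birc5, the mitotic member of the family encoding survivin, was at 13.6, 15.01 and 26.3 CPM in control and 13.1, 8.08 and 6.86 CPM in LPS, not overlapping and not called (log2 fold change -0.97, adjusted p = 0.124). Its pair ratios were -0.05, -0.89 and -1.94 on the log2 scale, and its log2 fold change was -0.60 without control replicate 3 and -0.40 without both libraries numbered 3.

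In the apoptosome and caspase list 2 of 8 genes were called, both higher and both by less than 1 on the log2 scale. Apaf1, the scaffold of the apoptosome, changed by 0.25 (adjusted p = 0.0426) and Cycs, cytochrome c, by 0.59 (adjusted p = 0.0402), with 26.1% of Cycs words shared with other copies. Leaving out any library other than LPS replicate 3 ended both calls, with an adjusted p up to 0.169 for Apaf1 and 0.132 for Cycs. Both were also lost with library size alone, at log2 fold changes of 0.10 (adjusted p = 0.317) for Apaf1 and 0.43 (adjusted p = 0.0569) for Cycs, and with no filter, at adjusted p of 0.143 and 0.0551. Upper-quartile factors ended the call of Apaf1 as well (0.15, adjusted p = 0.161).

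Transcripts of p53, of its targets, and of FOXO and stress genes were also measured. Whether they are linked to the levels of the BH3-only members was not tested. Of 10 genes in the p53 list, Trp53 itself was called higher (log2 fold change 0.45, adjusted p = 0.0299) and its targets Zmat3 (-0.53, adjusted p = 0.0439) and Trp53inp1 (-0.95, adjusted p = 0.0304) lower, while the other 7 were not called, Cdkn1a among them at 0.49 (adjusted p = 0.0801). Every LPS library lay above every control library for Cdkn1a, and it was called higher with the replicate block (0.49, adjusted p = 0.00822), with DESeq2 (0.51, adjusted p = 0.0183), without LPS replicate 3 (0.59, adjusted p = 0.0336) and without both libraries numbered 3 (0.51, adjusted p = 0.000839). With the replicate block 3 were higher, Mdm2 among them (0.55, adjusted p = 0.00571), and 5 lower. The lower ones included Perp (-1.99, adjusted p = 0.00357), Phlda3 (-0.37, adjusted p = 0.0186) and Sesn2 (-0.32, adjusted p = 0.0224). Without the block Perp had a log2 fold change of -1.88 and was not called (adjusted p = 0.267). Sesn2 had every LPS library below every control library, missed the threshold (-0.32, adjusted p = 0.05001) and was called in 6 of 15 alternatives. Of 6 genes in the FOXO and stress list, Foxo1 was called lower, at 32.0, 31.4 and 37.4 CPM in control and 22.1, 20.0 and 26.4 CPM in LPS (log2 fold change -0.56, adjusted p = 0.0454), and Ddit3, the stress factor CHOP, was called higher by 0.58 (adjusted p = 0.00909). Without control replicate 2 none of these 5 calls held, with adjusted p of 0.131 for Trp53, 0.166 for Zmat3, 0.118 for Trp53inp1, 0.128 for Foxo1 and 0.0654 for Ddit3. Apart from Ddit3, each also lost its call without control replicate 1 or either of LPS replicates 1 and 2, at adjusted p from 0.0538 to 0.145. With no filter Trp53 (adjusted p = 0.0565), Zmat3 (0.0516) and Foxo1 (0.0561) were not called. Trp53 was further lost without control replicate 3 (adjusted p = 0.0557), with upper-quartile factors (log2 fold change 0.35, adjusted p = 0.0846) and with library size alone (0.30, adjusted p = 0.108). Foxo1 was lost without control replicate 3 (adjusted p = 0.0934) and with RLE (relative log expression) factors (adjusted p = 0.0507), and Zmat3 without LPS replicate 3 (adjusted p = 0.0626). None of these genes changed direction in the alternatives run.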

How the data were processed

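Neurosphere-derived EGCs were profiled by bulk poly(A) RNA sequencing (TruSeq stranded mRNA kit) in 3 control and 3 LPS libraries, grouped by the sample titles. Raw counts were deposited, as whole numbers per gene that the authors had neither normalized nor pooled. Per the submitters' processing notes, cutadapt 1.15, Bowtie2 2.3.3.1, STAR 2.5.2b, SAMtools 1.5 and featureCounts 1.5.3 were used on mouse genome GRCm38, and the strand setting and the handling of multi-mapping reads were not given in the sources used here, so counts of genes that share sequence or overlap another gene are uncertain. A further table combining the libraries was not used.

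Counts were filtered with filterByExpr (minimum count 10, minimum total 15), scaled with TMM factors and compared with the two-sided quasi-likelihood F-test of edgeR 4.0.16 in R 4.3.3, fitting the group alone, and p-values were adjusted by Benjamini-Hochberg over the 15226 genes tested. Levels are CPM on the scaled library sizes. Levels of different genes were compared per kilobase of the exon union in GENCODE M21, the source of coordinates. Floors and count ratios cover counting error only, since PCR copies cannot be recognised. The members and gene lists were chosen with earlier results of these data known. Named genes were all members, every called gene of a pathway list up to the 4 with the largest absolute log2 fold change, Bax, Bak1, Casp8, Fas and 1 further gene, and for each called member the 3 tested genes with at least 5 CPM and the nearest profile (prior count 2). Bcl2a1b, Bcl2l10, Bid, Birc5, Cdkn1a, Cyld, Diablo, Htra2, Mdm2, Naip2, Perp, Phlda3, Rnf31 and Sesn2 were outside this rule where they are named. Some genes that entered the tests and counts are not reported here by name.

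No label explains the replicate numbers. Each library's deviation from its group mean was correlated across genes between control and LPS. This gave r = 0.58, 0.39 and 0.64 for the numbers 1, 2 and 3. Control replicate 2 was as close to LPS replicate 1 (r = 0.40). LPS replicate 2 was closer to control replicate 1 (r = 0.47) than to control replicate 2. The numbers 1 and 2 therefore did not separate as pairs, and the block is given as an alternative only. Alternatives were other scaling factors and filters, DESeq2 1.42.0, voom of limma 3.58.1, a replicate block, each library left out in turn, and, added after the data were seen, both libraries numbered 3 left out.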

Additional observations from a re-analysis of the deposited data

How the results depend on the processing

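Birc3 and Cflar were called higher in each of the 15 alternatives run. The members called were 2 higher and 2 lower, the pathway genes 13 and 5, and all genes 1384 and 1022. Upper-quartile factors gave 1589 genes lower. Library size alone gave 4 members, 2054 genes and 8 pathway genes lower. These scalings moved the median over all genes, on the log2 scale, from -0.02 to -0.12 and -0.18, and the share of calls that were higher from 57.5% to 39.8% and 32.4%, and no member's call turned in direction. No filter gave 3 pathway genes lower, and DESeq2 called 2079 genes higher and 1673 lower. The cause of these shifts was not tested beyond the scaling itself.

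With the replicate block, which pairs equally numbered libraries, 2343 genes were higher and 2273 lower, with 20 and 8 pathway genes and 3 and 3 members. Bcl2l11 and Birc2 were the members whose call changed under the block. Without both libraries numbered 3, 5 members, 3159 genes and 11 pathway genes were lower and 3498 genes and 24 pathway genes higher. Leaving out 1 library at a time gave 2 to 3 members higher and 0 to 3 lower, 379 to 1964 genes higher and 112 to 1426 lower, and 4 to 17 pathway genes higher and 0 to 5 lower. The lowest counts of genes came without control replicate 2. Each member lay above the detection floor in every library, and the effect of depth on the calls was not tested.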
